A study of Mus musculus with 6 samples.

Results

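S100a8 and S100a9, whose products pair to form calprotectin, and 8 other genes of the S100 family were examined in mouse ear skin. The members were all genes named S100a8, S100a9, S100a7a, S100a3, S100a4, S100a6, S100a11, S100a14, S100a16 or S100g in the probe annotation of the array. They came to 10 genes read by 13 probes, among 23675 genes tested and 39429 probes measured. Ear skin RNA from 6 mice was hybridised to 6 1-colour arrays. Of these, 3 were NC16A sufficient (WT 1, 2 and 3) and 3 were NC16A deficient (KO 1, 2 and 7). NC16A is a segment of BP180 that lies just outside the cell membrane. BP180 is collagen XVII, the transmembrane collagen that holds basal keratinocytes to the basement membrane. Age and sex were matched between the groups. Their age, their strain and how the deficiency was made are not given in the sources used here.

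S100 proteins are small proteins that bind calcium through a pair of EF-hand loops and mostly work as dimers. Calprotectin, the S100A8 and S100A9 pair, is abundant in neutrophils, is made by keratinocytes of wounded or inflamed skin, binds zinc and manganese away from microbes, and signals through TLR4 and RAGE once released. Most S100 genes lie side by side at the edge of the epidermal differentiation complex, the gene cluster for proteins of the outer epidermis. S100g lies apart from them on the X chromosome.

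The wild-type arrays and that of KO 1 shared 1 slide (slide 1), while KO 2 and KO 7 were on another (slide 2). Slide and genotype are therefore partly mixed, and the difference of each member is also given within slide 1, where KO 1 alone is set against the WT mice. A fit with slide as a block gives this same difference, since slide 2 holds no WT array. In that fit KO 2 and KO 7 add only to the estimate of spread. Signals are log2 values relative to the array's 75th percentile. That percentile lay between 5276 and 6656 intensity units on WT arrays and between 3806 and 4416 on KO arrays, so the KO arrays were the dimmer ones before scaling. Differences are KO minus WT with the standard error (SE) of the limma fit, and a gene passed at a Benjamini-Hochberg adjusted p under 0.05 over all genes. Col17a1, the gene of BP180, was read by 1 probe. It ranged from 4.39 to 4.47 over the WT mice and from 4.10 to 4.48 over the KO mice (adjusted p = 0.58). Whether that probe lies in the missing segment is not known here, so it checks no label. No source says more than that the RNA came from different mice, so p-values measure the spread between these 6 mice.

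The probes are 60 bases long, and those of different S100 genes share little sequence. The probes shown here hold, in capitals, the longest stretch that probes of 4 S100 genes share with at most 1 free base (N). It belongs to the coding sequence at the end of the second calcium-binding loop, and it shows how far one S100 probe resembles another. All 4 are printed 5′ to 3′.
S100a8 probe, mm9 chr3:90473778-90473837, plus strand: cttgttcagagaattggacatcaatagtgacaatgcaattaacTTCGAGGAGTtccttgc
S100a6 probe, mm9 chr3:90418160-90418219, plus strand: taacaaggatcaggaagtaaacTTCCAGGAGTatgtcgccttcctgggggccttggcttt
S100a4 probe, mm9 chr3:90409734-90409793, plus strand: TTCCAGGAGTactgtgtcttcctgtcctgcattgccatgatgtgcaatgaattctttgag
S100a1 probe, mm9 chr3:90315191-90315250, minus strand: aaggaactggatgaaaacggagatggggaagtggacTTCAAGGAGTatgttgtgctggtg
The stretch TTCNAGGAGT occurs in 4 of the 22 S100 probes and in 0.0431% of all 39429 probes. Aligned without gaps, the S100a8 probe shared 27 of its 60 bases with this S100a4 probe, the closest match between probes of different members. The S100a8 and S100a9 probes shared 20 of 60. The S100a4 probe shown here is the second of its gene and is not the one that stands for S100a4 in the test.

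The promoters of the calprotectin genes are shown because the pair moved together. They cover 250 bases before and 10 after the annotated start in GRCm38.p6, from RefSeq, and capitals mark matches to the motifs TATAAA (the core promoter box), TGANTCA (for AP-1), TTNNGNAA (for C/EBP) and the NF-kB consensus, searched on both strands.
S100a8 promoter, chr3:90668821-90669080, plus strand: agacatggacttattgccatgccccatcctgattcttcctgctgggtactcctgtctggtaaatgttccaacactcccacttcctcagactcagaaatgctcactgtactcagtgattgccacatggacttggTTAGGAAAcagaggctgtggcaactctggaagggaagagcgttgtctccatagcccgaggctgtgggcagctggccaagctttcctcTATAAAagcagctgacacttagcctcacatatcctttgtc
S100a9 promoter, chr3:90695712-90695971, minus strand: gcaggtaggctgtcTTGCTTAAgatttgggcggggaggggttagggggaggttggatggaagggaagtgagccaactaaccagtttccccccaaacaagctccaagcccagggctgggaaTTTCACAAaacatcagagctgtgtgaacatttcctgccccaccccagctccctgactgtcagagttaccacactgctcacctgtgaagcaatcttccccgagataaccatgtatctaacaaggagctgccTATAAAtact
S100a8 holds TATAAA 30 bases before the start and a C/EBP match, TTAGGAAA, at -117. S100a9 holds TATAAA at the annotated start itself and C/EBP matches on the other strand, printed here as TTGCTTAA at -236 and TTTCACAA at -130. No marked match overlaps another. Neither window holds a match to the AP-1 or NF-kB motif. Of 32851 promoters of this length, 12.7% hold TATAAA, 37.7% the C/EBP motif, 7.03% the AP-1 motif and 7.46% the NF-kB motif.

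Of the 10 members, 3 rose (S100a8, S100a9 and S100a3), 1 fell (S100g, above background in WT mice only) and 6 did not pass. Of all genes tested 2.37% passed, 1.98% higher in KO and 0.389% lower. Another member, S100a7a, had a large difference that did not pass. In S100a4, S100a6, S100a11, S100a14 and S100a16, the difference was under 0.40 in size. The median difference of the 10 members was 0.37, against 0.054 for all genes, and within slide 1 it was 0.18, against -0.0027. The mean was higher in KO for 8 of the 10, as for 55.1% of all genes. In 7 members the KO mice lay wholly on 1 side of the WT mice, as in 35.4% of all genes.

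**Figure D1:**
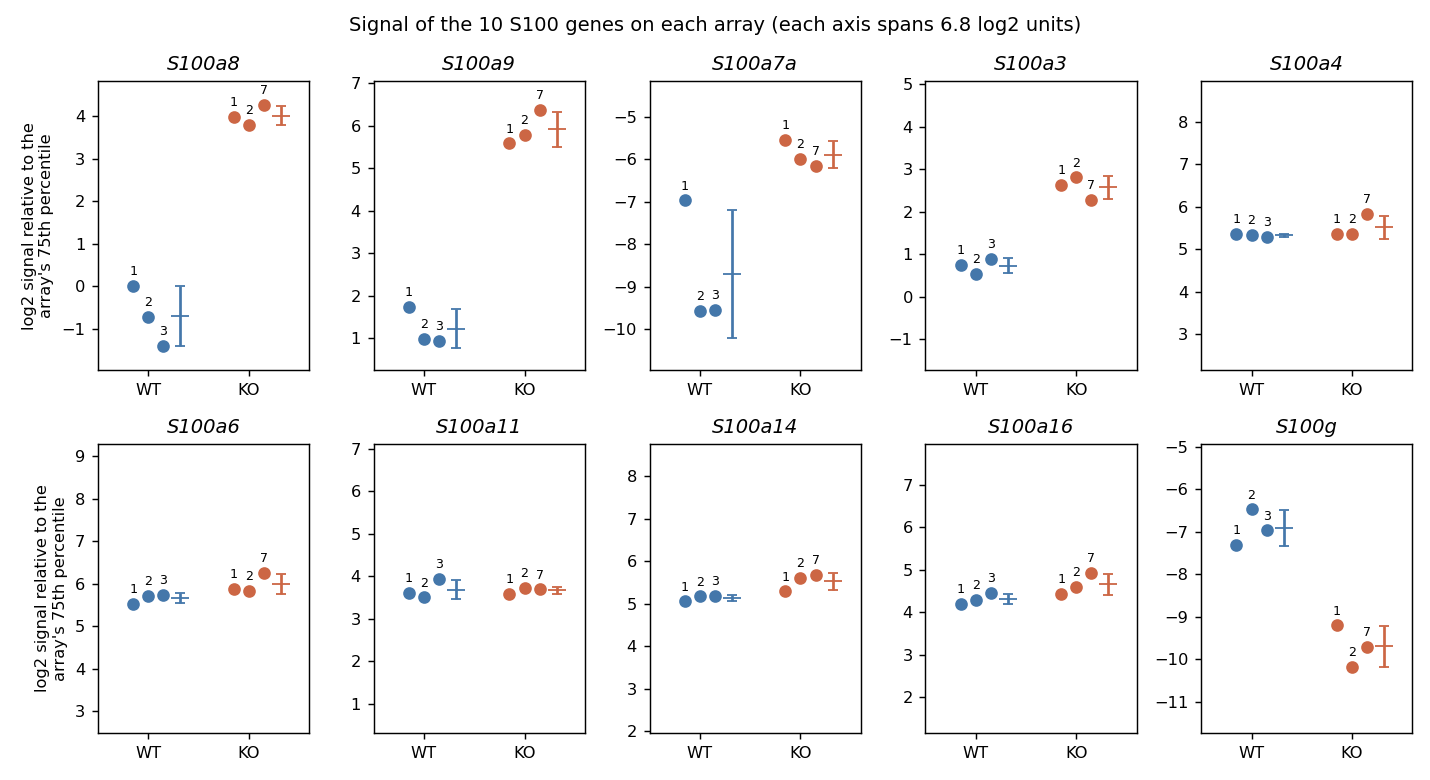
Signal of each S100 member on the 6 arrays, as log2 relative to the array's 75th percentile. Points are single mice with their numbers, bars show the mean ± SD of 3 mice, and each panel spans the same number of log2 units. S100a8, S100a9 and S100a3 stand clear of WT in all KO mice, while S100a4 and S100a11 overlap between the groups.

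S100a8, one chain of calprotectin, rose 26.3-fold in KO ear skin. Its processed signal, in intensity units, was 6680, 3218 and 2092 in WT 1, 2 and 3, against 69975, 58222 and 72929 in KO 1, 2 and 7. Relative to the array's 75th percentile, the log2 values of the WT mice were 0.0052, -0.71 and -1.40, whereas those of the KO mice were 3.99, 3.81 and 4.26. The groups did not overlap, and the lowest KO mouse, KO 2, lay far above the highest WT mouse, WT 1. The WT mean was -0.70 ± 0.70 (SD, n = 3) and the KO mean 4.02 ± 0.23 (SD, n = 3), so the WT mice varied more on the log2 scale. Their difference was 4.72 ± 0.35 (95% confidence interval 3.88 to 5.55, or 14.8-fold to 47.0-fold, adjusted p = 0.0023 by limma). Within slide 1 it was 4.69, and with slide as a block, a fit in which 0.710% of all genes passed, its adjusted p was 0.032. From the 4 arrays of slide 1 alone it did not pass (adjusted p = 0.060). Its probe is the first of those printed above.

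S100a9, the other chain, rose 25.8-fold. Its processed signal was 22296, 10440 and 10514 intensity units in WT 1, 2 and 3, against 211141, 229255 and 313009 in KO 1, 2 and 7. The WT mice had relative log2 values of 1.74, 0.98 and 0.93, whereas the KO mice had 5.58, 5.78 and 6.36. WT 1 was the highest WT mouse and KO 7 the highest KO mouse for both chains. The WT mean was 1.22 ± 0.45 (SD, n = 3) and the KO mean 5.91 ± 0.41 (SD, n = 3). The difference of 4.69 ± 0.30 (95% confidence interval 3.98 to 5.39, or 15.8-fold to 42.0-fold) had an adjusted p of 0.0019 in limma. Within slide 1 it was 4.36, and with slide as a block the adjusted p was 0.023. The S100a9 probe spans chr3:90496573-90496632 of mm9 (minus strand). With each mouse left out in turn, S100a8 differed by 4.37 to 5.07 and S100a9 by 4.46 to 4.95, with an adjusted p of at most 0.018 and 0.015.

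The changes of the 2 chains were set against each other within each array. The log2 signal of S100a8 minus that of S100a9 was -1.74, -1.70 and -2.33 in WT 1, 2 and 3, against -1.59, -1.98 and -2.10 in KO 1, 2 and 7. The ranges overlapped, with means of -1.92 ± 0.35 (SD, n = 3) and -1.89 ± 0.27 (SD, n = 3). The change of S100a8 exceeded that of S100a9 by 0.031 (two-sided exact permutation test over the 6 arrays, p = 1), which does not show that they are equal. With 3 mice against 3 that test cannot go below 0.1, and leaving out each mouse moved this value between -0.17 and 0.14. Within slide 1 it was 0.33. Because the probes differ in sequence, the 2 signals are not amounts of RNA that can be set against each other.

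Neutrophils and stressed keratinocytes both make calprotectin, and in whole skin more cells of a type and more RNA per cell cannot be told apart. Of 20 neutrophil genes 17 could be tested, of which 2 rose, 0 fell and 9 had an unadjusted p under 0.05, as 6302 of all 23675 genes had. Of the 17, 15 were higher in KO and 2 lower, with a median difference of 0.73. Cxcr2, a chemokine receptor of neutrophils, rose by 2.05 ± 0.26 (adjusted p = 0.015). Stfa2l1, a stefin gene, rose by 2.57 ± 0.44 (adjusted p = 0.042). Cxcr2 lost the call when WT 2, WT 3 or KO 2 was left out (adjusted p up to 0.076) and Stfa2l1 when KO 2 or any WT mouse was (adjusted p up to 0.16), and neither passed with slide as a block. The mean log2 signal over the 17 genes was -3.44, -3.94 and -4.05 in WT 1, 2 and 3, against -2.65, -2.63 and -1.44 in KO 1, 2 and 7. KO 7 was highest, as for S100a8 and S100a9. It was also the highest KO mouse in other lists, such as that of monocytes and macrophages, so this order is not particular to neutrophils. Ly6g, the surface protein used to define mouse neutrophils, differed by -0.35 ± 0.15 (adjusted p = 0.19) and is named as their defining marker, after its value was seen. The granule gene Ngp, the integrin gene Itgb2l and Cd177 were not well above background on enough arrays to be tested.

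Genes of stressed keratinocytes were read in the same way. Of 9 genes 5 rose, 0 fell and 4 did not pass, 8 were higher in KO, 8 had an unadjusted p under 0.05, and their median difference was 2.17. Sprr2d, for a cornified envelope protein, rose by 3.55 ± 0.35 (adjusted p = 0.0057) and Gjb2, a connexin gene, by 2.12 ± 0.23 (adjusted p = 0.0080). Gjb6, its partner, rose by 2.04 ± 0.32 (adjusted p = 0.031), Krt17 by 1.04 ± 0.17 (adjusted p = 0.036) and Krt16 by 2.74 ± 0.50 (adjusted p = 0.048), both of them keratins of wounded epidermis. Gjb6 and Krt17 lost the call without any 1 WT mouse, KO 2 or KO 7 (highest adjusted p = 0.081 and 0.15), and Krt16 without any mouse but WT 2 (highest adjusted p = 0.10). The list's mean log2 signal was 1.65, 0.59 and 1.19 in WT 1, 2 and 3, against 3.26, 2.83 and 3.70 in KO 1, 2 and 7. Within slide 1 its median difference was 2.48, and that of the neutrophil list was 0.55. The part of either cell type in the calprotectin result was not tested.

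In the markers of 2 other cell types no gene passed. Of 11 monocyte and macrophage genes 10 could be tested, of which 0 rose and 0 fell, 3 had an unadjusted p under 0.05 and 8 were lower, with list means from -0.21 to 0.19 in WT and from -0.70 to -0.18 in KO. Cd68, a lysosomal protein of macrophages, differed by -1.05 ± 0.29 (adjusted p = 0.10) and lysozyme, Lyz2, by -1.41 ± 0.45 (adjusted p = 0.13). Of 9 basal and suprabasal keratinocyte genes 0 rose and 0 fell, with 4 at an unadjusted p under 0.05. Krt1 differed by 1.16 ± 0.29 (adjusted p = 0.087) and Krt5 by 0.54 ± 0.15 (adjusted p = 0.10), and the list means lay between 5.31 and 5.46 in WT and between 5.60 and 5.77 in KO.

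**Figure D2:**
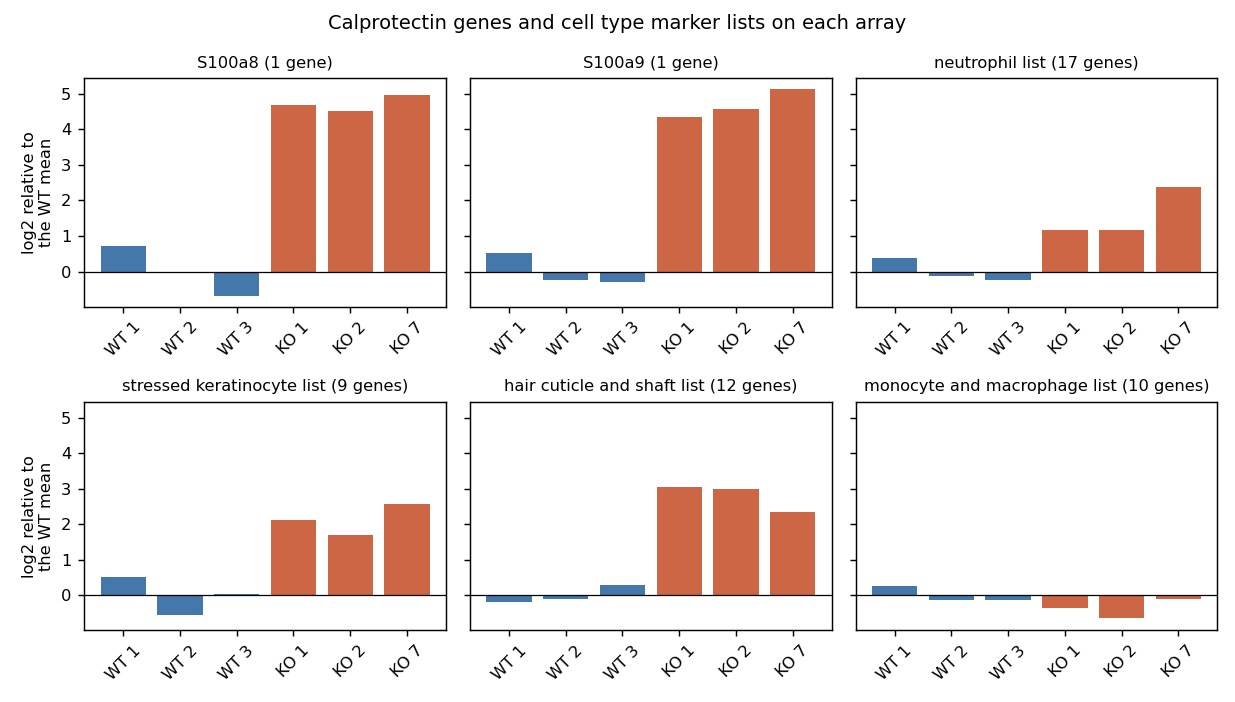
Log2 signal of S100a8, of S100a9 and of 4 marker lists (mean of the genes tested) on each of the 6 arrays, relative to the mean of the 3 WT mice. Bars are single mice. KO 7 is the highest bar for S100a8, S100a9, the neutrophil list and the stressed keratinocyte list, and the lowest KO bar for the hair cuticle and shaft list.

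S100a7a, which encodes the mouse counterpart of psoriasin, an antimicrobial protein of inflamed epidermis, differed by 2.80 ± 0.69 and did not pass (95% confidence interval 1.14 to 4.46, adjusted p = 0.086). Its processed signal was 53.2, 6.9 and 7.4 intensity units in WT 1, 2 and 3, against 94.5, 65.4 and 53.3 in KO 1, 2 and 7. On the relative log2 scale the WT mice had -6.97, -9.58 and -9.55, whereas the KO mice had -5.55, -5.99 and -6.16. It was well above background in all 3 KO mice but in WT 1 only of the WT mice, and WT 1 lay closer to the KO mice than to the other WT mice. The WT mean was -8.70 ± 1.497 (SD, n = 3) and the KO mean -5.90 ± 0.32 (SD, n = 3), with no overlap. Without WT 1 the difference was 3.66 and passed (adjusted p = 0.0093), while leaving out any other mouse gave 2.36 to 2.93 and no pass. The fit without WT 1 rests on WT 2 and WT 3, neither well above background. Its 3.66 is therefore not a measured size, and its pass is not separate support. With normexp background correction, which lifts faint signals, the difference over all mice was 0.99 ± 0.13 (adjusted p = 0.0074). Within slide 1 it was 3.15. Its probe spans chr3:90461922-90461981 of mm9 (plus strand).

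S100a3, a zinc-binding S100 protein known from the cuticle cells of hair, rose 3.59-fold. Its relative log2 values were 0.76, 0.54 and 0.88 for WT 1, 2 and 3, whereas KO 1, 2 and 7 had 2.63, 2.81 and 2.27. Every KO mouse was above every WT mouse, and KO 7, highest for calprotectin, was the lowest KO mouse here. Means were 0.73 ± 0.17 (SD, n = 3) and 2.57 ± 0.27 (SD, n = 3). The difference was 1.84 ± 0.18 (95% confidence interval 1.41 to 2.28, adjusted p = 0.0063). It stayed between 1.72 and 1.99 with each mouse left out, with an adjusted p of at most 0.034. Within slide 1 it was 1.90, and with slide as a block it did not pass (adjusted p = 0.071). The S100a3 probe spans chr3:90406396-90406455 of mm9 (plus strand).

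Hair cuticle and shaft genes were read beside S100a3. Of 12 genes 10 rose, 0 fell and 2 did not pass, with a median difference of 3.17. Krt82 and Krt35, hair keratins, rose by 3.21 ± 0.20 and 3.099 ± 0.22 (adjusted p = 0.0019 each). Krtap5-1, of the keratin-associated proteins that fill the shaft, rose by 3.54 ± 0.25 (adjusted p = 0.0021) and Padi3, an enzyme that citrullinates S100A3 and trichohyalin, by 4.31 ± 0.35 (adjusted p = 0.0032). All 4 passed with slide as a block. The list mean was -2.11, -2.05 and -1.64 in WT 1, 2 and 3, against 1.11, 1.05 and 0.42 in KO 1, 2 and 7, with KO 7 the lowest of the KO mice as for S100a3. The part of hair growth in the S100a3 result was not tested.

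S100g, which encodes calbindin-D9k, a vitamin D-dependent calcium carrier of the gut and other epithelia, was the 1 member that fell. Its processed signal was 41.6, 59.3 and 43.9 intensity units in WT 1, 2 and 3, against 7.5, 3.6 and 4.6 in KO 1, 2 and 7. On the relative log2 scale these were -7.32, -6.48 and -6.97 for WT, whereas KO mice had -9.20, -10.19 and -9.70. The probe was well above background in all WT mice and in 0 of the 3 KO mice, so the fall is a bound of at least 1.45-fold, set by the background level of the KO arrays. It met the filter of 3 arrays through the WT mice alone, and the fit rests on KO values at background. The fitted difference was -2.78 ± 0.31 (adjusted p = 0.0088), from means of -6.92 ± 0.42 (SD, n = 3) and -9.70 ± 0.49 (SD, n = 3). Within slide 1 it was -2.28, and with slide as a block it did not pass (adjusted p = 0.10). With normexp background correction it was -0.24 ± 0.18 (adjusted p = 0.38), and it could not be tested with a filter that asked for signal on all 6 arrays. The other S100g probe, which overlaps the main one by 46 of 60 bases, was above background on 2 of 3 WT arrays and on no KO array, with a bound of at least 1.04-fold. The main probe spans chrX:159399938-159399997 of mm9 (minus strand).

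Genes of calcium transport and vitamin D action known with S100g were read beside it. Of 10 listed genes 7 could be tested, of which 0 rose, 0 fell, 4 had an unadjusted p under 0.05 and 6 were higher in KO, with a median difference of 0.36. Cyp27b1, the enzyme that makes active vitamin D, differed by 0.73 ± 0.15 (adjusted p = 0.062) and Calb1, a larger calbindin, by 0.57 ± 0.15 (adjusted p = 0.090). For Cyp24a1, Trpv5 and Calb2 no array was well above background.

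The other 5 members were well above background on all 6 arrays, and none passed. S100a4, a protein of fibroblasts and other motile cells, was at 5.36, 5.34 and 5.29 for WT 1, 2 and 3, whereas KO 1, 2 and 7 had 5.36, 5.36 and 5.82. Only KO 7 stood above the rest, and the difference was 0.18 ± 0.16 (95% confidence interval -0.21 to 0.58, adjusted p = 0.48). The second S100a4 probe gave -0.038, and under quantile normalization the main one gave -0.076, so S100a4 has no settled direction. S100a6, calcyclin, a protein of proliferating cells, was at 5.53, 5.72 and 5.74 for WT 1, 2 and 3, whereas KO 1, 2 and 7 had 5.88, 5.83 and 6.26. On this relative scale each KO mouse was above each WT mouse, with a difference of 0.33 ± 0.16 (95% confidence interval -0.065 to 0.71, adjusted p = 0.24). Before scaling the groups overlapped. The processed signal was 306613, 278752 and 295567 in WT 1, 2 and 3, against 259175, 237340 and 291793 in KO 1, 2 and 7, on the dimmer arrays.

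S100a11, a partner of annexins that is present throughout the epidermis, was at 3.60, 3.50 and 3.93 for WT 1, 2 and 3, whereas KO 1, 2 and 7 had 3.58, 3.72 and 3.69. The KO values lay inside the WT range. The difference was -0.014 ± 0.15 (95% confidence interval -0.38 to 0.35, or 0.768-fold to 1.28-fold, adjusted p = 0.96). The probe of its pseudogene S100a11-ps, with 35 of 60 bases in common, gave -0.031 ± 0.15 (adjusted p = 0.90), and binding of either RNA to the other's probe was not tested.

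S100a14, an epithelial S100 protein, was at 5.05, 5.17 and 5.19 for WT 1, 2 and 3, whereas KO 1, 2 and 7 had 5.29, 5.61 and 5.67. On this relative scale the groups did not overlap, and the difference of 0.39 ± 0.15 (95% confidence interval 0.031 to 0.74) did not pass (adjusted p = 0.17). S100a16, widely expressed, was at 4.20, 4.28 and 4.45 for WT 1, 2 and 3, whereas KO 1, 2 and 7 had 4.44, 4.60 and 4.92. WT 3 lay just above KO 1, and the difference was 0.35 ± 0.17 (95% confidence interval -0.054 to 0.74, adjusted p = 0.23), with 0.094 for its other probe. Within slide 1 S100a14 differed by 0.15, S100a16 by 0.13, S100a6 by 0.21, S100a4 by 0.033 and S100a11 by -0.096. For S100a4, S100a6, S100a14 and S100a16 the KO mouse on slide 1 was thus nearer to WT than the KO mean. The scale matters here too, since S100a6 differed by 0.024 and S100a14 by 0.14 under quantile normalization.

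**Figure D3:**
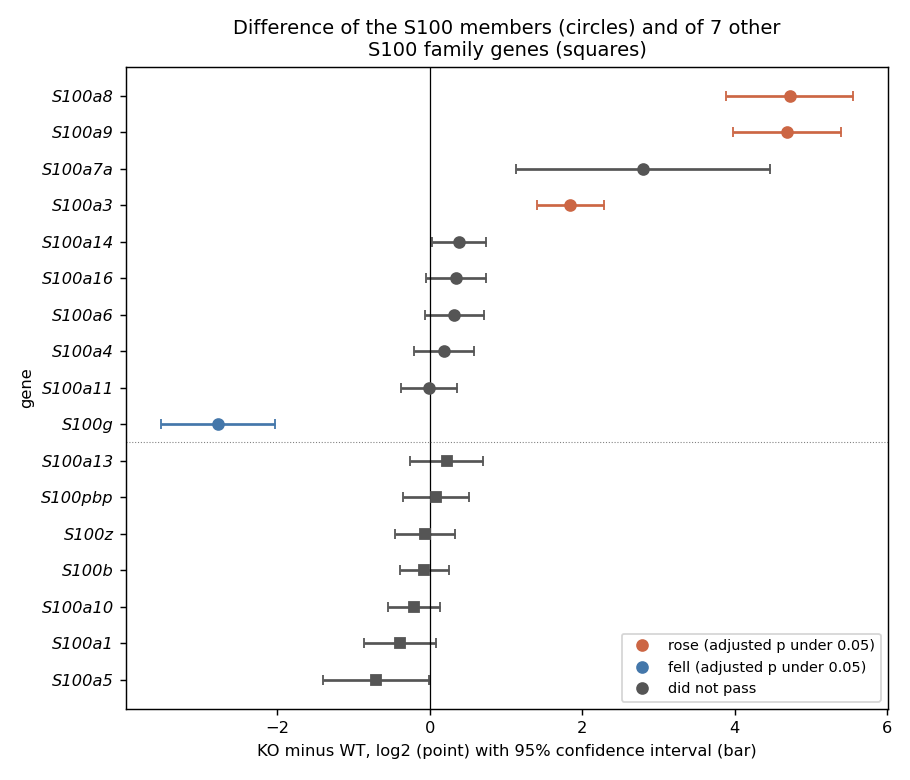
KO minus WT on the log2 scale for the 10 S100 members (circles) and 7 other genes listed with the S100 family (squares), with 95% confidence intervals from 3 mice per group. S100a8 and S100a9 lie at 4.72 and 4.69, S100g lies at -2.78 as a fitted value whose KO signal is at background, and the 7 other genes lie between -0.70 and 0.22.

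None of 7 other genes listed with the family passed. These were S100a1, S100a5, S100a10, S100a13, S100b, S100z and S100pbp, with 0 rises, 0 falls, 1 at an unadjusted p under 0.05 and a median of -0.069. S100a5 gave the smallest p, with -0.70 ± 0.29 (adjusted p = 0.19), followed by S100a1 with -0.39 ± 0.20 (adjusted p = 0.24). The array also held S100a2 (0.71 ± 0.31, adjusted p = 0.21) and S100a7l2 (-0.48 ± 0.42, adjusted p = 0.47), named here after their values were seen.

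Along chromosome 3 the members that rose were not all neighbours. From S100a1 to S100a9, over 181.7 kb of mm9, 12 S100 genes were tested, of which 3 rose, 0 fell and 10 were higher in KO, with a median difference of 0.37. S100a7a, S100a8 and S100a9 lie together at 1 end, with 2.80, 4.72 and 4.69. S100a3 (1.84) lies between S100a2 (0.71) and S100a4 (0.18), and S100a5 (-0.70) lies between S100a4 and S100a6 (0.33). The next stretch, from S100a9 to S100a11, covers 2833 kb and includes the epidermal differentiation complex. There 11 of 67 genes rose and 1 fell, with a median difference of 0.44, against 28 and 7 of 1188 genes and a median of 0.014 on the whole chromosome. The 1 that fell, LOC675614, differed by -1.02 ± 0.16 (adjusted p = 0.033) and was named after its value was seen. Beyond S100a11, as far as S100a10, 0 of 2 genes passed.

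**Figure D4:**
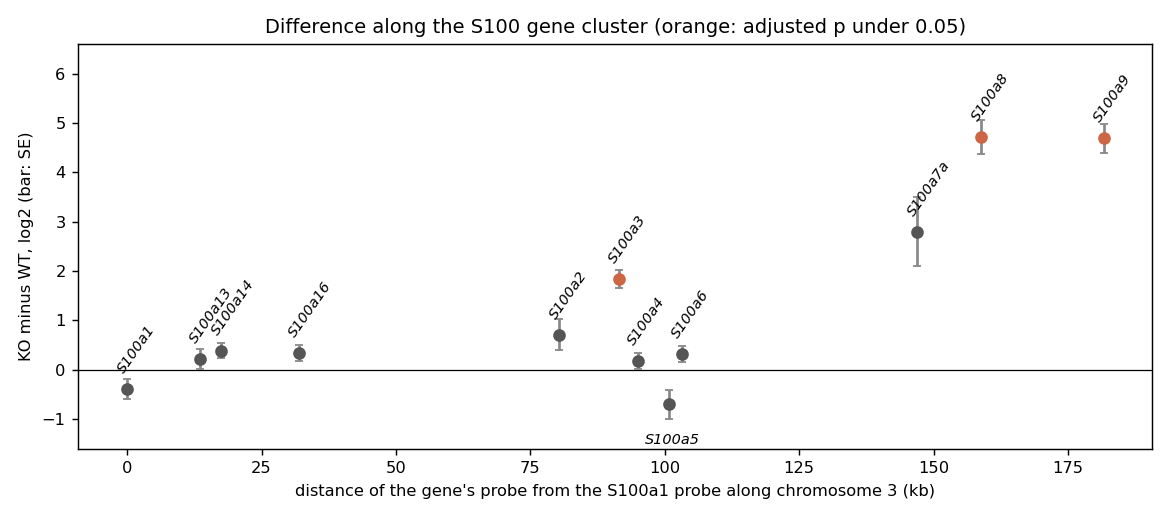
KO minus WT on the log2 scale (bars show the SE) for 12 S100 genes, against the distance of each gene's probe from that of S100a1 along chromosome 3. Orange points passed, and the highest values, 4.72 and 4.69, belong to S100a8 and S100a9 at the right-hand end.

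In that complex lie genes for S100-fused proteins, which join an S100 domain to a long repeat, and for envelope proteins. Of 22 listed, 20 could be tested, of which 4 rose, 0 fell, 15 had an unadjusted p under 0.05 and 19 were higher in KO, with a median of 0.93. The fused genes Tchhl1 and Tchh, of the hair follicle, rose by 4.85 ± 0.41 (adjusted p = 0.0037) and 3.56 ± 0.34 (adjusted p = 0.0057). Crnn, for the fused protein cornulin, rose by 3.98 ± 0.38 (adjusted p = 0.0054), and Sprr2d is given above. Tchhl1, Tchh and Crnn also passed with slide as a block. The other fused genes listed did not pass and are named after their values were seen. Rptn differed by 1.61 ± 0.54 (adjusted p = 0.14), Hrnr by 1.05 ± 0.28 (adjusted p = 0.095) and Flg by 0.67 ± 0.41 (adjusted p = 0.32). Flg2 was lower in KO, at -0.78 ± 0.19 (adjusted p = 0.086).

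Cytokines known to induce calprotectin and S100a7a in keratinocytes were partly higher. Of 12 genes 3 rose, 0 fell and 8 had an unadjusted p under 0.05, with a median of 1.0, or 0.55 within slide 1. The mean was higher in KO for 9 and lower for 3, and not all of the 8 were higher. Il17a, the cytokine of IL-17-producing T cells, was at -7.33, -8.11 and -8.14 for WT 1, 2 and 3, whereas KO 1, 2 and 7 had -3.98, -3.12 and -2.83. It was well above background in WT 1 only of the WT mice and in all KO mice, and WT 1 and KO 7 were the highest of their groups, as for S100a9. The difference was 4.55 ± 0.36 (adjusted p = 0.0027, and 0.023 with slide as a block). Il17f rose by 1.48 ± 0.23 (adjusted p = 0.031) and Il1f6, the gene of IL-36 alpha, by 1.54 ± 0.27 (adjusted p = 0.045). Il17f lost the call when WT 1, WT 2, KO 2 or KO 7 was left out (adjusted p up to 0.10) and Il1f6 without any mouse but KO 1 (highest adjusted p = 0.15). Neither passed with slide as a block.

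Other antimicrobial proteins of keratinocytes were read beside the S100 genes. Of 10 genes 3 rose, 0 fell and 7 did not pass. Of the 10, 8 had an unadjusted p under 0.05, and the median was 1.49. The mean was higher in KO for 8 and lower for 2, and neither of these 2 overlapped between the groups. Lyz2, given above, is among the 2. Lcn2, which withholds iron from bacteria, rose by 2.72 ± 0.34 (adjusted p = 0.014). Defb14 and Defb3, beta-defensins, rose by 1.91 ± 0.25 (adjusted p = 0.016) and 4.51 ± 0.61 (adjusted p = 0.019). Lcn2 lost the call when WT 2 or KO 2 was left out (adjusted p up to 0.072), Defb14 without any 1 WT mouse (highest adjusted p = 0.075) and Defb3 when WT 2 or WT 3 was (adjusted p up to 0.086), and none of the 3 passed with slide as a block.

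Genes for the receptors and partners of S100 proteins did not pass. Of 10 receptors and adaptors, which include Tlr4, Ager (RAGE), Cd36 and Bsg, 0 rose, 0 fell, 5 had an unadjusted p under 0.05 and the median was 0.24, or 0.029 within slide 1. Tlr4 differed by -0.85 ± 0.25 (adjusted p = 0.12) and Alcam by 0.52 ± 0.19 (adjusted p = 0.16), each without overlap between the groups. Of 10 annexins and other partners 0 rose, 0 fell, 2 had an unadjusted p under 0.05 and the median was -0.076. Myh9, non-muscle myosin, a partner of S100A4, differed by 0.43 ± 0.17 (adjusted p = 0.17) and Anxa2, a partner of S100A10, by 0.39 ± 0.16 (adjusted p = 0.18).

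The genes whose pattern over the 6 arrays was most like that of S100a8, S100a9, S100a3 or S100a7a are given as a description, by Pearson's r among 16714 genes with a symbol. The arrays form 2 groups, so any gene that differs strongly between them has a high r. For S100a8 they were Fxyd4 (r = 0.996), Gjb2 (0.995) and S100a9 (0.994), and for S100a9 they were Il17a (0.997), Grpr (0.996) and Fxyd4 (0.995). S100a3 was most like Krt40, a hair keratin gene (0.999), Fbp1 (0.997) and Tnfsf18 (0.997). S100a7a was most like Mpo, the myeloperoxidase gene of neutrophils (0.989), Pla2g4e (0.989) and Fbxw20 (0.988), none of which passed. WT 2 and WT 3 were not well above background for S100a7a, nor for Il17a. For S100g no such genes are given, since its KO values are at background and have no order.

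**Figure D5:**
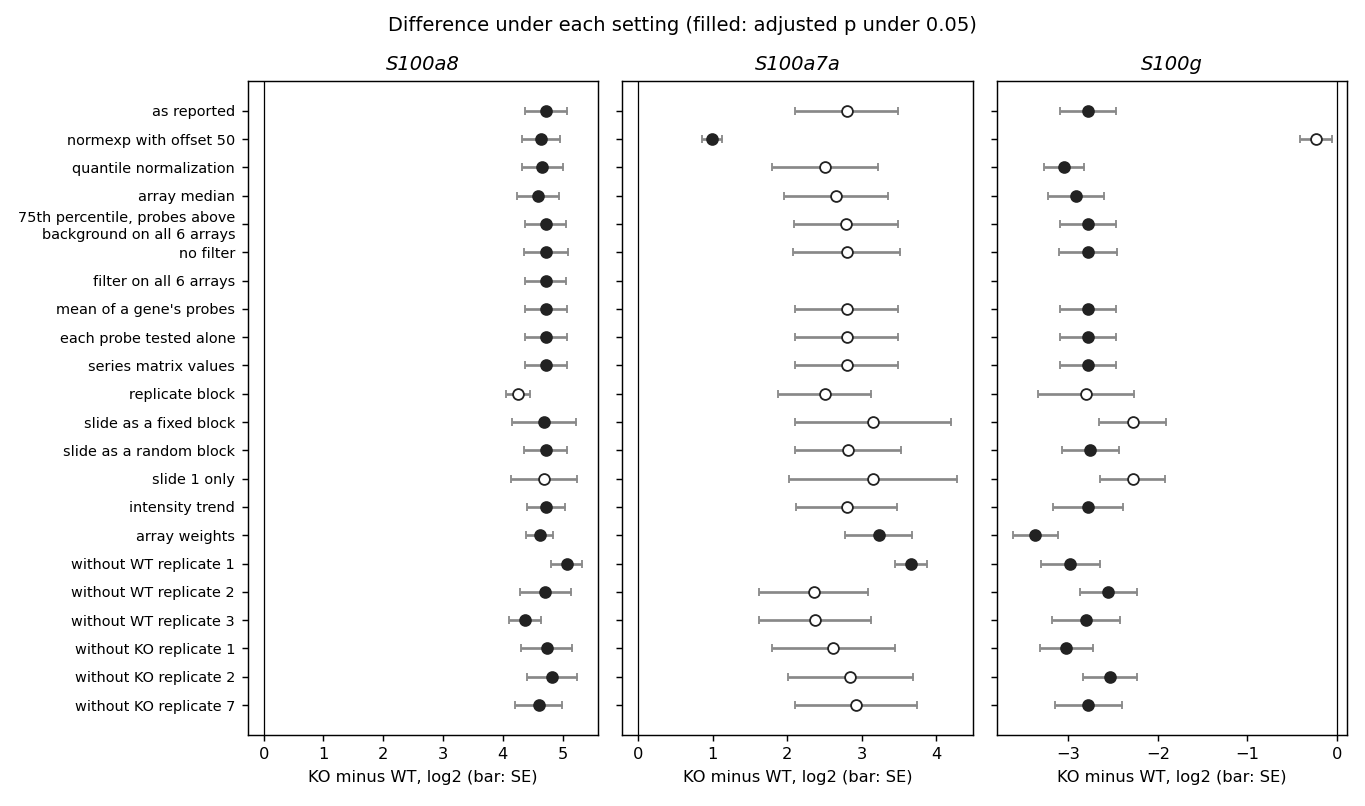
KO minus WT on the log2 scale (bars show the SE) for S100a8, S100a7a and S100g as reported (top line) and under each alternative setting. Filled points have an adjusted p under 0.05. S100a8 stays between 4.25 and 5.07, S100a7a passes under normexp, array weights and without WT 1, and S100g shrinks to -0.24 under normexp. Without WT 1, no WT mouse left is well above background for S100a7a.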

How the data were processed

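Ear skin RNA of 6 mice was measured on 6 arrays, grouped by the sample titles (3 WT, 3 KO). The deposited scanner files give an intensity per spot, the processed signal, and the deposited value table repeats it, with equal intensity for all 43340 features. Per the file headers, Agilent Feature Extraction 10.7.3.1 (protocol GE1_107_Sep09, design 026655, mm9) subtracted background and did not normalize between arrays. No spot was saturated, and 72.6% to 78.2% of spots were well above background. Between 170 and 249 spots per array were dropped as outliers.

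Signals were put on the log2 scale relative to the array's 75th percentile. Probes well above background on at least 3 arrays were kept (29601 of 39429, of which 40 had no usable value), and the brightest kept probe by mean signal stood for each of 23675 genes. Names came from a RefSeq table (GRCm38.p6), in which 26055 probes were found by their accession, 3195 through a symbol and 930 through a synonym, while 9249 kept the name in the file. Promoters matched 9 of the 10 members. The 2 groups were compared by limma 3.58.1 under R 4.3.3 (lmFit and eBayes, two-sided, 4 residual and 2.64 prior degrees of freedom), with Benjamini-Hochberg adjustment over all genes. A gene above background on no array of 1 group is given as a bound. The fit was tested on simulated data first. The number of arrays limits the precision.

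All 10 members were named. A list contributed at most 4 passing genes, by smallest p. If fewer than 2 passed, it contributed its 2 smallest p, and if at most 5 passed, all of those. The 3 genes with the highest r were named for 4 members, and those of S100g, which the same rule covers, were left out because its KO values are at background. Ly6g, Flg, Flg2, Hrnr and Rptn were named outside the rule. The members and the lists were chosen with earlier results of these data known, so no test was run on a list and no p was adjusted over one. Marker lists of adipocytes, cartilage and skeletal muscle were also read, and 1 further list is not reported here. Alternatives covered the background correction, scaling, filter, choice of probe, deposited matrix, replicate number and slide as blocks, intensity trend, array weights, thresholds and each mouse left out. Sequences were read from the scanner files and RefSeq tables. Other tools were Python 3.11.15, pandas 2.3.3, numpy 2.4.6 and matplotlib 3.10.9.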

Additional observations from a re-analysis of the deposited data

How the results depend on the processing

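S100a8 and S100a9 stayed higher in KO under all 23 alternatives run, at 4.25 to 5.07 and 4.32 to 4.95, and S100a3 did so at 1.71 to 2.12. Not all of the 23 could move these values. For a gene with 1 probe, the filter, choice of probe, deposited matrix, intensity trend and thresholds leave the difference unchanged. Over 22 alternatives S100a7a lay between 0.99 and 3.66 and S100g between -3.37 and -0.24. Counts of genes higher and lower in KO were 468 and 92 as reported, with 3 and 1 members. Normexp gave 861 genes higher with 0 members lower. The array median gave 149 genes lower, no filter 269 higher and 27 lower, and the filter on all 6 arrays 0 members lower. Slide as a fixed block gave 158 and 10 genes with 0 members lower, and slide 1 only gave 157 and 8 with 1 member higher (S100a9) and 0 lower. Array weights gave 4548 and 3081 genes with 5 members higher, and an adjusted p under 0.10 gave 1569 and 471. Of the calls, 83.6% were higher, against 72.3% with the array median and 73.5% with quantile normalization. The median of all genes moved from 0.054 to 0.11 with normexp, 0.12 with no filter and -0.083 with the array median. Leaving out each mouse gave 183 to 717 genes higher (lowest without WT 2, highest without KO 1) and 19 to 254 lower. S100a11 turned to 0.025 with normexp, 0.099 with the replicate block, 0.090 with array weights, and 0.027 without KO 1 (-0.10 to 0.11 with each mouse left out), and S100a4 to -0.076 with quantile normalization. None of these differences passed. The cause of these shifts was not tested.

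The labels name no pairing, and only numbers 1 and 2 occur in both groups, so the fit with the replicate block uses 4 arrays. It had 0 genes higher and 0 lower, with 0 members in either direction, against 4516 genes at an unadjusted p under 0.05. S100a8 was 4.25 (adjusted p = 0.075), S100a9 4.32 (adjusted p = 0.10), S100a3 2.07 (adjusted p = 0.11) and S100g -2.80 (adjusted p = 0.18) in limma. Deviations of same-numbered mice correlated at 0.083 and 0.054, and those of differently numbered mice at -0.14 to 0.21. Signal over background limits S100a7a and S100g.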

Other observations

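In the adipocyte, skeletal muscle and cartilage lists no gene passed. All 6 adipocyte genes were lower in KO, with 0 passing, 3 at an unadjusted p under 0.05 and a median of -0.99, or -0.42 within slide 1. Adipoq, for adiponectin, differed by -1.31 ± 0.38 (adjusted p = 0.11) and Lep, for leptin, by -1.50 ± 0.45 (adjusted p = 0.11). All 6 skeletal muscle genes were lower too, with 0 passing, 2 at an unadjusted p under 0.05 and a median of -0.59, or -0.31 within slide 1, among them Myh1 (-0.54 ± 0.16, adjusted p = 0.11) and Mb, for myoglobin (-0.65 ± 0.21, adjusted p = 0.13). Of 5 cartilage genes tested 4 were lower, 0 passed, 4 had an unadjusted p under 0.05 and the median was -0.62, with Comp at -0.62 ± 0.14 (adjusted p = 0.069) and Col9a1 at -1.12 ± 0.26 (adjusted p = 0.075).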
